A study of Mus musculus with 3 samples.

Results

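The genes of 3 linked families, the matrix metalloproteinases (MMPs), the ADAMTS proteases and the tissue inhibitors of metalloproteinases (TIMPs), were examined in single-cell counts of mouse sciatic nerve. Members were chosen by symbol alone, as every row named Mmp, Adamts or Timp followed by its number. Of 21438 gene symbols in the count tables, 41 were members: 18 Mmp, 19 Adamts and 4 Timp genes. The mouse annotation used here holds 46 such genes, and Mmp1a, Mmp1b, Mmp7, Mmp20 and Mmp21 had no values in these tables.

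MMPs are zinc proteases that cut collagen, gelatin, laminin and other proteins of the extracellular matrix, and some of them also release growth factors and other signals. ADAMTS proteases are secreted relatives, of which some trim procollagens into mature collagen and some cut large proteoglycans such as versican and aggrecan. TIMPs bind and block these enzymes, with inhibitor-specific preferences. In a cut peripheral nerve the segment beyond the lesion loses its axons and myelin and its matrix is rebuilt, a setting in which MMP9, MMP2 and TIMP1 have been widely studied.

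Cells came from 3 Drop-seq libraries, 1 per group. The first group was injured nerve cleared with myelin removal beads: the distal segment of the sciatic nerve of adult wild-type CD1 mice, 9 days after resection. The second was injured nerve sorted by FACS, from adult CD1 and C57BL/6 mice, also the distal segment at 9 days, with an unstated sort gate. The third was uninjured sciatic nerve of adult wild-type CD1 mice, cleared with beads, for which the table holds only cells that the authors predicted to be mesenchymal. All 3 groups were dissociated with collagenase and trypsin. How many animals were pooled is not stated. With 1 library per group there was no replicate spread and no test was possible. Every interval below covers counting error only.

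The injured beads library held 4300 barcodes and 10859939 UMIs (unique molecular identifiers, each marking 1 captured transcript), the injured FACS library 2000 barcodes and 7122377 UMIs. The authors' mesenchymal tables held 1289 injured cells with 4746263 UMIs and 880 uninjured cells with 2169121 UMIs, and the injured cells are a subset of the beads library. The FACS and beads tables shared 1 barcode. All 6 mesenchymal markers (such as Col1a1, Dcn and Pdgfra) were seen in both mesenchymal pools and summed to 58632 CPM in injured against 94625 CPM in uninjured cells, where CPM gives a gene's UMIs in every 1000000 UMIs that the pool holds. Markers of other cell types differed between these pools. The 14 mononuclear phagocyte markers summed to 346 CPM in injured cells (14 of 14 seen), against 31.3 CPM in uninjured cells (9 of 14 seen, with C1qa, C1qc, Adgre1, Fcgr1 and Cd209a at 0). The 8 Schwann cell markers, all seen in both pools, summed to 78.2 CPM in injured against 289 CPM in uninjured cells. The 5 erythroid markers summed to 112 CPM in injured cells (Hba-a2 at 0) and 1612 CPM in uninjured cells.

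Of the 23 annotated Mmp genes 10 lie side by side on chromosome 9, in a stretch of 427 kb (chr9:7272514-7699585, mm10), and 6 of these 10 had values: Mmp13, Mmp12, Mmp3, Mmp10, Mmp8 and Mmp27. They are shown first because these neighbours were detected in different cell types, as described further on. The AP-1 motif TGANTCA (N any base; the motif reads the same on both strands), a site bound by Fos and Jun proteins, was searched in the 250 bases before RefSeq transcript starts. It occurred in 8 of 35 windows of annotated members (22.9%) and in 6.75% of 32851 windows of all genes. All 8 windows belong to genes of the chromosome 9 cluster, namely Mmp13, Mmp12, Mmp1b, Mmp3, Mmp1a, Mmp10, Mmp20 and Mmp7, while the Mmp8 and Mmp27 windows held no match. Only 27 of the 41 members with values had a window. Mmp2, Mmp9, Mmp19, Adamts4 and Adamts5 had none and were not searched. The RUNX motif TGTGGT, searched on both strands, occurred in 17.1% of member windows and 14.0% of all windows. The CRE motif TGACGTCA occurred in 0 of 35 member windows and in 1.55% of all windows. A match describes letters in this window, not binding. Below are 4 windows of 250 bases from RefSeq (GRCm38.p6, the assembly also called mm10), each on the plus strand, with the AP-1 match in capitals. Mmp13 and Mmp3 were mesenchymal in these data, Mmp12 was found in phagocytes and Mmp8 in both neutrophils and phagocytes. The Mmp13 window is chr9:7272264-7272513, with the match starting 35 bases before the transcript start. The Mmp3 window is chr9:7445572-7445821, with the match starting 46 bases before. Mmp12 has windows for 2 starts, and the one nearest the annotated gene start, chr9:7344147-7344396, holds no match. The one printed, chr9:7347124-7347373, precedes a start that lies 2993 bases downstream of the annotated gene start, and its match starts 44 bases before. The Mmp8 window is chr9:7558179-7558428.
Mmp13: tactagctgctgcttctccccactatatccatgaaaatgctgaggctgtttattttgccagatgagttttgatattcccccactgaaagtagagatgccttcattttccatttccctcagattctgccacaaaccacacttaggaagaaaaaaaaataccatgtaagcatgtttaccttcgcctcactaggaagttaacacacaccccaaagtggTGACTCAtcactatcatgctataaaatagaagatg
Mmp3: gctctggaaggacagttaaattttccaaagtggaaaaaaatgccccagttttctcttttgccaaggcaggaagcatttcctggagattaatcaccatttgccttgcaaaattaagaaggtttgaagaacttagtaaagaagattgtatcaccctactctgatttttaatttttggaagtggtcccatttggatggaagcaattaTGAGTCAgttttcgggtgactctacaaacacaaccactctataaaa
Mmp12: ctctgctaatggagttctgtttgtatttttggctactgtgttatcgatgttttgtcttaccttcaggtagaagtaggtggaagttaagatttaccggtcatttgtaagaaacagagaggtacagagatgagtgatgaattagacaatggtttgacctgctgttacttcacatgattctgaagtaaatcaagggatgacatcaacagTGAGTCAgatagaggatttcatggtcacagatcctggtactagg
Mmp8: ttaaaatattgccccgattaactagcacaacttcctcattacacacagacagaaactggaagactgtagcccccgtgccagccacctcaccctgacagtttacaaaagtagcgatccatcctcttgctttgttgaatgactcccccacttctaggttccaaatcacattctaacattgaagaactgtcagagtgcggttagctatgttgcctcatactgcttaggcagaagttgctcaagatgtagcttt

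The first comparison asked how members differ between mesenchymal cells of injured and uninjured nerve, isolated the same way from the same strain. Timp1, Adamts9, Adamts4, Mmp14 and Mmp3 were higher in injured cells and Adamts5 was lower. A gene counted as higher or lower when it reached 50 CPM in a pool, differed 2-fold or more and had a 95% interval that excluded equal levels. Of the 15 members that reached 50 CPM, 5 were higher and 1 was lower. Over all 3964 genes at that level, 8.17% were higher and 7.14% were lower. The median log2 ratio was 0.41 over the 15 members and 0.20 over all of these genes. Of the other 26 members, 1 (Adamts13) had no UMI in either pool and the rest stayed under 50 CPM in both.

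**Figure D1:**
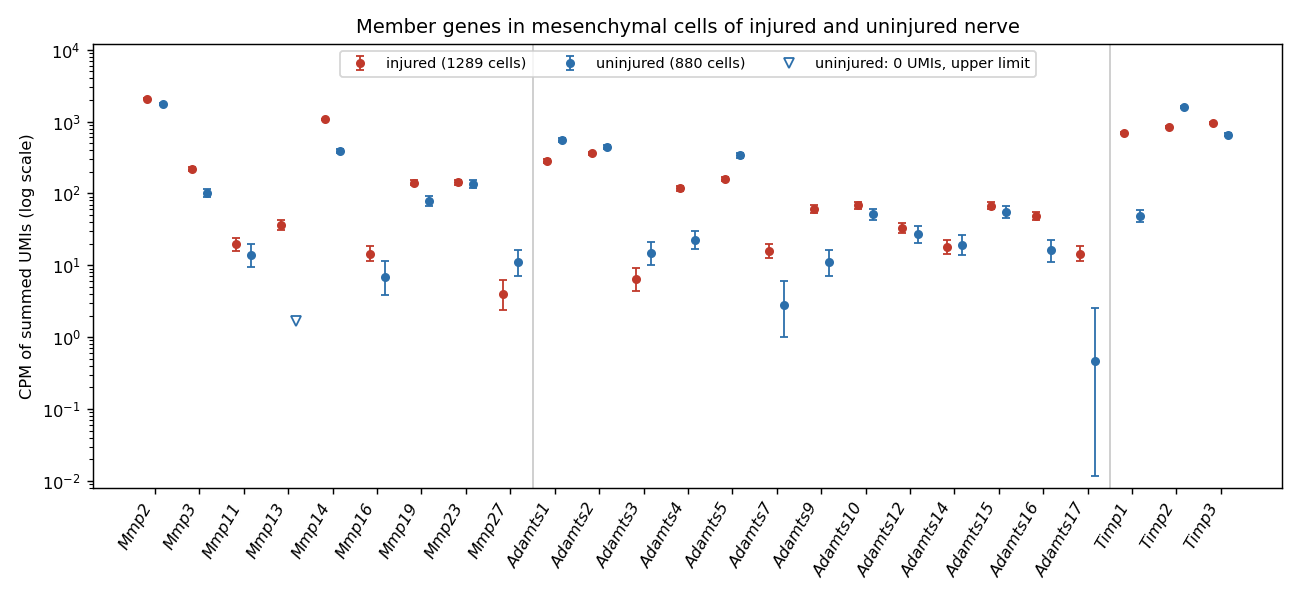
Level of each member that reached 10 CPM in injured (red, 1289 cells) or uninjured (blue, 880 cells) mesenchymal cells, as CPM of summed UMIs on a log scale. Points are pool values, bars are exact Poisson 95% intervals for counting error, and the open triangle is the upper limit for 0 UMIs; Timp1 shows the widest gap among genes above 50 CPM (697 against 48.4 CPM).

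Collagenases, which make the first cut in fibrillar collagen, were represented by Mmp13 and Mmp8. Mmp13 had 174 UMIs (36.7 CPM) in injured cells and 0 UMIs in uninjured cells, where the table lists no row for it. Against 3 counts over the uninjured pool, set in place of the 0, Mmp13 was 26.5-fold higher in injured cells. The lower end of the counting interval for the Mmp13 log2 ratio was 4.41. Mmp13 stayed under the 50 CPM needed for a call. Its UMIs sat in 30 of 1289 cells, and the 10 cells with the most held 77.0% of them. In the FACS library 39 of 666 mesenchymal-like cells held 190 UMIs (44.1 CPM), and the top 10 cells held 72.6%. Mmp8, a neutrophil collagenase, had 3 UMIs in injured and 0 in uninjured cells.

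Among gelatinases, which degrade denatured collagen and basement membrane, Mmp2 had 2085 CPM in injured against 1750.5 CPM in uninjured cells. The log2 ratio was 0.25 (0.20 to 0.31), and 82.5% of injured and 81.4% of uninjured cells held at least 1 UMI. Mmp2 was thus abundant in both pools and far from a 2-fold difference. Mmp9 had 13 UMIs (2.74 CPM) in injured and 0 in uninjured cells.

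Of the stromelysins, which have a wide range of matrix substrates and activate other MMPs, Mmp3 had 221 CPM in injured against 101 CPM in uninjured cells (log2 1.12, 0.91 to 1.34). It was seen in 17.3% of injured and 7.27% of uninjured cells. With each cell thinned to 1000 UMIs, which left out 315 injured and 119 uninjured shallower cells, these shares were 11.7% and 4.99%. In B cell-like cells of the injured beads library (median 763.5 UMIs), which should lack the gene, 1.03% held a Mmp3 UMI. The ratio lay just above 2-fold and came to log2 0.996 with TMM scaling, just under it. Mmp10 had 1 UMI in each pool.

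Mmp14 (MT1-MMP), a membrane-anchored collagenase that activates the MMP2 proenzyme, had 1071 CPM in injured against 389 CPM in uninjured cells. The log2 ratio was 1.46 (1.36 to 1.57), and it was 0.90, short of 2-fold, with the 3 subclasses found in both groups at equal weight. A Mmp14 UMI was found in 71.9% of injured and 50.2% of uninjured cells, or 55.4% and 33.1% after thinning, against 3.87% of B cell-like cells. The other 5 membrane-type genes stayed under 15 CPM, and Mmp16 had 69 UMIs (14.5 CPM) in injured against 15 UMIs (6.92 CPM) in uninjured cells.

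Among other MMPs, Mmp19 had 141 CPM in injured against 78.8 CPM in uninjured cells (log2 0.83), short of 2-fold. Mmp23 had 142 CPM in injured against 135 CPM in uninjured cells (log2 0.07). Mmp12, the macrophage metalloelastase, had 22 UMIs in injured and 0 in uninjured cells. Those Mmp12 and Mmp9 UMIs stand beside the phagocyte marker sums of 346 CPM in injured against 31.3 CPM in uninjured cells. The part of other cells in them was not tested. Mmp27, whose substrates are little known, had 19 UMIs in injured against 24 UMIs in uninjured cells.

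The proteoglycan-cleaving ADAMTS genes differed in both directions. Adamts4, an aggrecanase that also cuts versican, had 118 CPM in injured against 22.6 CPM in uninjured cells (log2 2.38, 1.96 to 2.83). Adamts9, which cuts versican and aggrecan, had 60.9 CPM in injured against 11.1 CPM in uninjured cells (log2 2.46, 1.86 to 3.13). Both were also seen in more injured cells: Adamts4 in 23.7% of injured and 4.77% of uninjured cells, Adamts9 in 14.9% of injured and 2.61% of uninjured cells. In B cell-like cells these shares were 0.773% for Adamts4 and 1.03% for Adamts9.

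Adamts5, the other main aggrecanase, had 159 CPM in injured against 338 CPM in uninjured cells (log2 -1.09, -1.23 to -0.94). It was seen in 25.8% of injured and 34.5% of uninjured cells, or 14.3% and 26.3% after thinning. The log2 ratio was -0.75 with each cell at the same weight and -0.90 after thinning, both short of 2-fold, and it came to -0.14 with subclasses at equal weight. Adamts1, its neighbour on chromosome 16 (Adamts1 at chr16:85793827-85803113, Adamts5 at chr16:85856173-85901828), had 284 CPM in injured against 556 CPM in uninjured cells. Its log2 ratio of -0.97 (-1.08 to -0.86) was just short of 2-fold and passed with TMM scaling (-1.10). Adamts15 had 67.2 CPM in injured against 55.3 CPM in uninjured cells (log2 0.28). As a sum the 7 genes of this group had 695 CPM in injured against 989.8 CPM in uninjured cells.

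Adamts2, which removes the amino-terminal propeptide of fibrillar procollagens, had 365 CPM in injured against 445 CPM in uninjured cells (log2 -0.29). Its relative Adamts14 had 18.1 CPM in injured against 19.4 CPM in uninjured cells. Adamts3 had 31 UMIs (6.53 CPM) in injured against 32 UMIs (14.8 CPM) in uninjured cells (log2 -1.18, -1.94 to -0.42), under 50 CPM in both. Of the remaining ADAMTS genes Adamts10, a fibrillin-associated protein, had 68.1 CPM in injured against 51.2 CPM in uninjured cells (log2 0.41). Adamts16, Adamts17 and Adamts7 stayed under 50 CPM. Adamts16 had 230 UMIs in injured against 35 UMIs in uninjured cells (48.5 and 16.1 CPM), Adamts17 had 69 UMIs in injured cells and 1 UMI in uninjured cells, and Adamts7 had 76 UMIs in injured against 6 UMIs in uninjured cells.

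The inhibitors differed among themselves. Timp1, a secreted inhibitor of most soluble MMPs, had 697 CPM (673 to 721) in injured cells and 48.4 CPM (39.6 to 58.6) in uninjured cells, a log2 ratio of 3.85 (3.57 to 4.14). It was seen in 52.7% of injured and 7.16% of uninjured cells, or 35.6% and 3.42% after thinning, against 3.87% of B cell-like cells. The B cell-like cells are from the injured library, and the uninjured table holds no other cell type in which free RNA could be gauged. Without cells that held 2 or more UMIs of another class's markers, which left 766 injured and 458 uninjured cells, the Timp1 log2 ratio was 3.73. Timp1 (chrX:20870166-20874735) lies inside Syn1 on the opposite strand, and whether counting used strand is not stated. Syn1 had 5 UMIs in injured cells and 1 UMI in uninjured cells.

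Timp2, which both inhibits MMP2 and takes part in its activation by MMP14, had 848 CPM in injured against 1617 CPM in uninjured cells (log2 -0.93, -0.997 to -0.865). Timp3, which binds to matrix and also blocks ADAM and ADAMTS enzymes, had 947 CPM in injured against 653 CPM in uninjured cells (log2 0.54). Timp3 lies inside Syn3 on the opposite strand, and Syn3 had 103 CPM in injured against 59.5 CPM in uninjured cells. Timp4 had 1 UMI in injured cells and 5 UMIs in uninjured cells. As sums, MMP genes had 3752 CPM in injured against 2493 CPM in uninjured cells, ADAMTS genes 1280.2 CPM in injured against 1575 CPM in uninjured cells, and TIMP genes 2492 CPM in injured against 2321 CPM in uninjured cells.

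The injured FACS library gave another injured pool, of 666 mesenchymal-like cells, set against the same uninjured cells. Isolation and strain differed along with injury here and cannot be told apart from it. Of 14 members at 50 CPM, Timp1, Adamts4, Mmp14 and Mmp3 were higher, and Adamts5 and Timp2 were lower. Over all 3944 genes at that level 11% were higher and 8.29% were lower, and the median log2 ratio was 0.11 over the 14 members and 0.23 over all of these. Timp1 had 592 CPM in FACS cells against the 48.4 CPM of uninjured cells (log2 3.61), and Mmp14 had 1682 CPM against 389 CPM (log2 2.11). Mmp3 had 248 CPM in FACS cells (log2 1.29 over uninjured cells), although 1 cell held 214 of its 1069 UMIs, and the log2 ratio was 1.14 without the top cell of each pool. Timp2 had 783 CPM in FACS cells (log2 -1.05 over uninjured cells), and the ratio was -0.73 in thinned cells, short of 2-fold. Adamts4 had 99.6 CPM (log2 2.14) and Adamts5 150.2 CPM (log2 -1.17) in FACS cells. Adamts9 had 30.9 CPM in FACS cells and 11.1 CPM in uninjured cells and so was under 50 CPM in both. Phagocyte markers summed to 1215 CPM in the FACS cells, against 31.3 CPM in uninjured cells, and their part in these values was not tested.

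**Figure D2:**
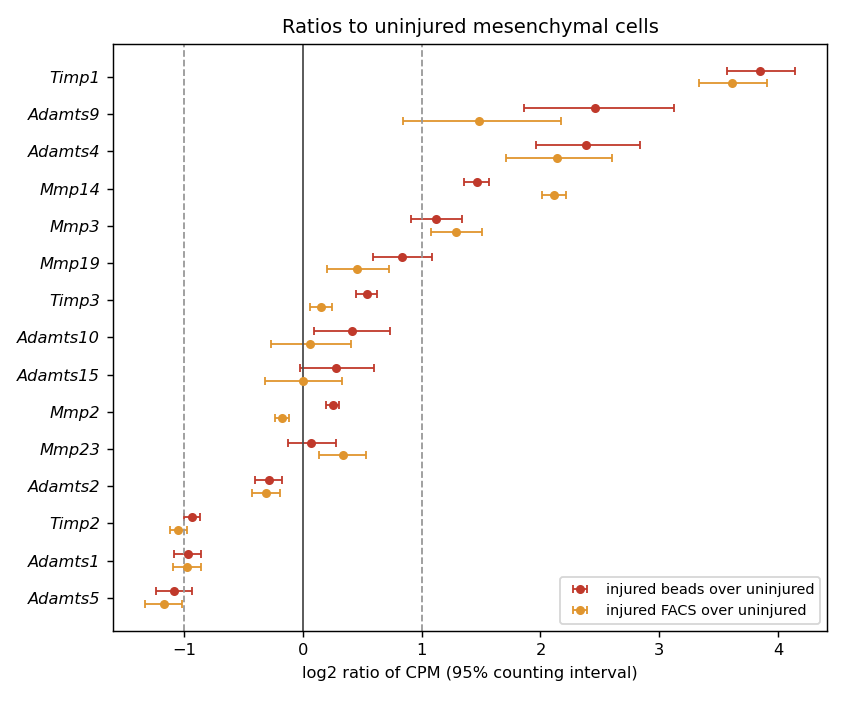
Log2 ratios to uninjured mesenchymal cells for the 15 members at 50 CPM or more in the beads comparison, in injured beads cells (red) and injured FACS mesenchymal-like cells (orange), which share the uninjured cells. Bars are 95% counting intervals and dashed lines mark 2-fold; Timp1 lies near log2 3.85 and 3.61, and Adamts5 near -1.09 and -1.17.

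Set directly against the 1031 mesenchymal-like cells of the injured beads library, the FACS cells had no member past the rule among 15 at 50 CPM. Over all 3934 genes at that level, 3.25% were higher and 1.37% were lower in FACS cells. Phagocyte markers summed to 1215 CPM in FACS and 252 CPM in beads cells. The widest gaps were those of Adamts9, with 30.9 CPM in FACS and 60.7 CPM in beads cells (log2 -0.97, -1.28 to -0.67), and Mmp14, with 1682 CPM in FACS and 1030.4 CPM in beads cells (log2 0.71). Without the top cell of each gene, Adamts9 reached 2-fold (log2 -1.03). Timp1 had 592 CPM in FACS and 707 CPM in beads cells (log2 -0.26).

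Mesenchymal cells of nerve belong to its layers: the endoneurium around axons, the perineurium that sheathes each fascicle and the epineurium on the outside. Mesenchymal cells of both groups were clustered in 1 space, with member genes left out, and clusters were named from marker lists. The subclasses were unevenly filled: 400 injured cells and 1 uninjured cell were differentiating-like, 256 injured and 425 uninjured cells endoneurial-like, 200 injured and 383 uninjured cells epineurial-like, and 74 injured and 66 uninjured cells perineurial-like. A further 359 injured and 5 uninjured cells were unnamed. The endoneurial-like cells fell in different clusters, 255 of the injured ones in cluster 4 and all 425 uninjured ones in cluster 0, so their comparison sets 1 cluster against another. Median depth there was 6078 UMIs in injured against 2181 UMIs in uninjured cells.

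In endoneurial-like cells the call counts went both ways. Of 14 members at 50 CPM 5 were higher in injured cells (Mmp3, Adamts4, Adamts9, Timp1 and Timp3) and 2 were lower (Adamts1 and Adamts5), where 11% of all 3721 genes were higher and 9.24% lower. Timp1 had 932 CPM in injured against 16.3 CPM in uninjured cells (log2 5.84, 5.17 to 6.60). Mmp3 had 355 UMIs (212 CPM) in injured cells and 0 UMIs in uninjured cells. Its injured level was 78.2-fold higher against 3 counts over the uninjured pool, set in place of the 0. Timp3 had 1718 CPM in injured against 546 CPM in uninjured cells (log2 1.65, 1.53 to 1.78). Adamts4 (log2 2.36) and Adamts9 (log2 3.08) were also higher. Adamts1 had 265 CPM in injured against 862 CPM in uninjured cells (log2 -1.70), and Adamts5 had 60.9 CPM in injured against 193 CPM in uninjured cells (log2 -1.67). Mmp2 had 3432 CPM in injured against 2342 CPM in uninjured cells (log2 0.55), and Mmp14 had 788 CPM in injured against 420.4 CPM in uninjured cells (log2 0.91), both under 2-fold.

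In epineurial-like cells no member of 13 passed the rule, where 4.14% of all 3790 genes were higher and 2.19% lower. Timp1 had 142 CPM in injured against 87.5 CPM in uninjured cells (log2 0.70, 0.18 to 1.20), and Mmp3 had 450.3 CPM in injured against 241 CPM in uninjured cells (log2 0.90). Mmp3 thus had 220 UMIs in uninjured epineurial-like cells and 0 in uninjured endoneurial-like and perineurial-like cells. Adamts5 had 634 CPM in injured against 551 CPM in uninjured cells, and Timp2 had 2477 CPM in injured against 2806 CPM in uninjured cells. With subclasses named by the highest marker score instead of by cluster, Adamts4 and Timp1 passed in this subclass.

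In perineurial-like cells 5 of 13 members were higher and none was lower, where 5.6% of all 4874 genes were higher and 7.51% lower. Timp1 had 43 UMIs (201 CPM) in injured against 3 UMIs (21.7 CPM) in uninjured cells (log2 3.21, 1.57 to 5.55). Mmp2 had 318 CPM in injured against 116 CPM in uninjured cells (log2 1.46), and Mmp14 had 884 CPM in injured against 419 CPM in uninjured cells (log2 1.08). Adamts9 had 23 UMIs in injured against 4 UMIs in uninjured cells. Adamts4 had 12 UMIs in injured cells and 1 UMI in uninjured cells, and it no longer passed without its top cell.

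**Figure D3:**
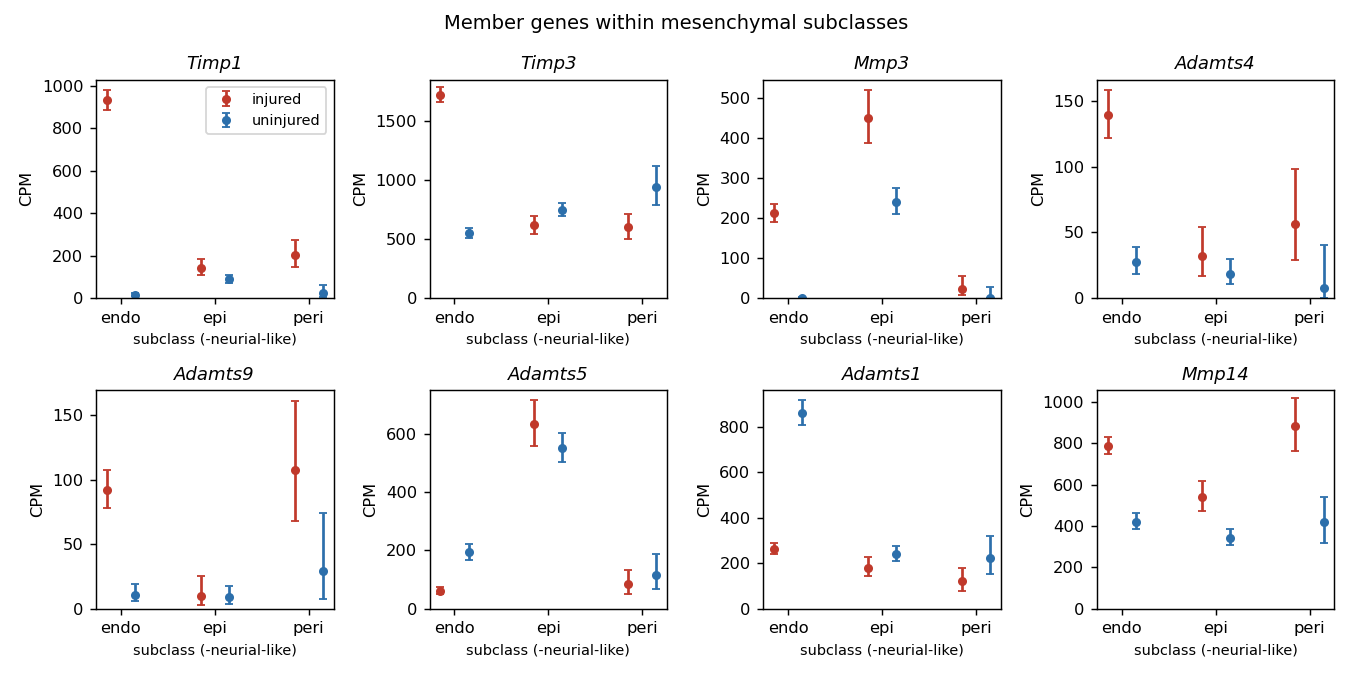
CPM of 8 members in injured (red) and uninjured (blue) mesenchymal cells by subclass (endo, epi and peri stand for endoneurial-like, epineurial-like and perineurial-like). Points are pool values and bars exact Poisson 95% intervals for counting error; Timp1 and Timp3 of injured endoneurial-like cells stand at 932 and 1718 CPM, and Adamts5 is highest in epineurial-like cells of both groups.

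Some pooled differences changed with the weight given to subclasses. Epineurial-like cells made up 15.5% of injured and 43.5% of uninjured cells, and differentiating-like cells 31.0% of injured and 0.114% of uninjured cells. With the 3 shared subclasses at equal weight, the log2 ratio of Timp2 was -0.17 and that of Adamts5 was -0.14, against -0.93 and -1.09 in the pools. This setting also left out the differentiating-like and unnamed cells, and the part of subclass shares in these moves was not tested. Within subclasses Timp2 had log2 ratios of -0.08 (endoneurial-like), -0.18 (epineurial-like) and -0.19 (perineurial-like). Adamts5 was lower past the rule within endoneurial-like cells, and was not called in epineurial-like or perineurial-like cells. Timp1 came to 3.35 at equal weight. In differentiating-like cells, which had only 1 uninjured counterpart, Timp1 had 683 CPM, Mmp14 1349 CPM and Mmp3 211 CPM. These 400 cells also held 126 of the 174 Mmp13 UMIs, 172 of the 230 Adamts16 UMIs and 59 of the 69 Adamts17 UMIs of the injured pool.

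The next question was which cell types of the injured nerve carry each member. Clusters of all injured cells were named from marker lists, and 9 classes of the beads library and 5 of the FACS library had at least 20 cells. In the beads library 22 members reached 50 CPM in a named class, of which 10 were highest in mesenchymal-like cells: Mmp2, Mmp3, Mmp14, Mmp19, Mmp23, Adamts2, Adamts10, Adamts15, Timp1 and Timp2. Pericyte or smooth muscle cell-like cells were highest for 3, endothelial cell-like cells for 3, Schwann cell-like cells for 3, neutrophil-like cells for 2 and mononuclear phagocyte-like cells for 1. In the FACS library 19 members reached 50 CPM, 11 of them highest in mesenchymal-like cells. Of the 19 members counted in both libraries 17 had the same highest class. The exceptions were Mmp9 and Timp3, whose highest beads classes, neutrophil-like and pericyte or smooth muscle cell-like, were not ranked in FACS. That library had too few neutrophil-like cells and no pericyte class, and Rgs5, a pericyte marker, led its endothelial cell-like cluster. Of the 17, counting error in FACS did not separate the highest class of Mmp15, Adamts4, Adamts5, Adamts9 and Adamts10 from the next. Adamts4 was highest in endothelial cell-like cells of both libraries, but in mesenchymal-like cells of FACS without its top cell. Against all other named cells, 12 of 16 members were higher in mesenchymal-like cells of the beads library, where 12.3% of 4842 genes were, and 13 of 16 in the FACS library, where 19.6% of 4368 genes were. These counts include genes with another highest class, such as Adamts5 in both libraries and Adamts1 and Adamts4 in FACS. The other named cells of FACS were mostly phagocyte-like (1991326 UMIs, with 309699 in endothelial cell-like cells, the next class).

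**Figure D4:**
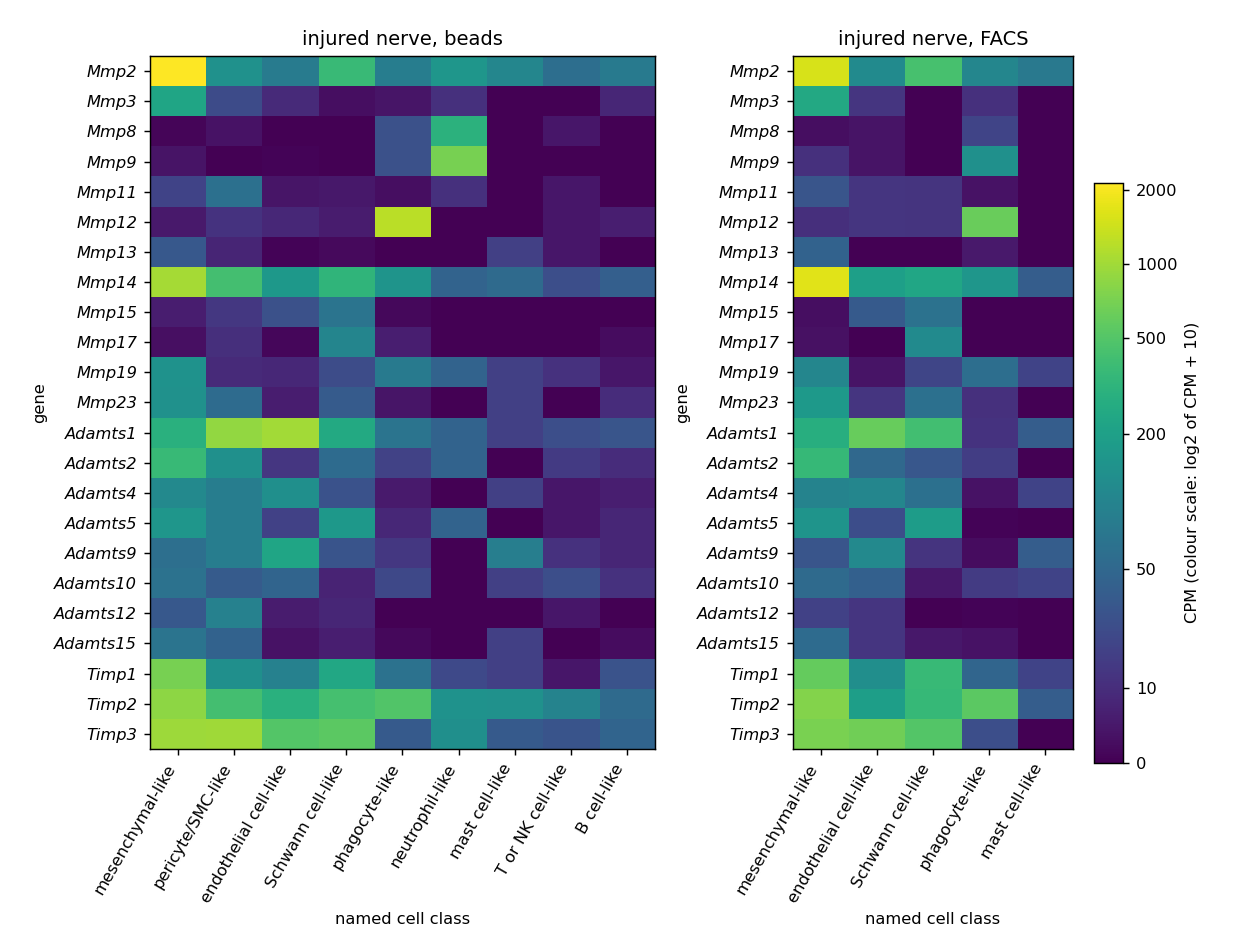
CPM of 23 members (rows) in the named cell classes (columns) of the injured beads library (left) and injured FACS library (right), on a colour scale of log2(CPM + 10). Mmp12 stands out in phagocyte-like cells of both libraries (1227 CPM in beads and 618 CPM in FACS), Mmp8 and Mmp9 in neutrophil-like cells of the beads library, and Mmp17 in Schwann cell-like cells.

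Nearly all Mmp3 was mesenchymal: 91.6% of its UMIs in the beads library and 93.4% in the FACS library were in mesenchymal-like cells. Its level was 224 CPM in mesenchymal-like cells and 24.3 CPM in the next class, pericytes or smooth muscle cells. Mmp2 had 2139 CPM in mesenchymal-like and 372 CPM in Schwann cell-like cells. Timp1 had 707 CPM in mesenchymal-like and 241 CPM in Schwann cell-like cells of the beads library, and 592 CPM and 365 CPM in those classes of the FACS library. Timp2 was broad: 846 CPM in mesenchymal-like cells, 486 CPM in phagocyte-like cells and 432 CPM in Schwann cell-like cells. Timp3 had 996 CPM in pericyte or smooth muscle cell-like and 959 CPM in mesenchymal-like cells of the beads library, within counting error (log2 0.06, -0.07 to 0.17).

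Some ADAMTS genes were high in vascular cells. Adamts1, known to act on vessels and to cut versican, had 1005 CPM in endothelial cell-like and 889.8 CPM in pericyte or smooth muscle cell-like cells of the beads library, against 291 CPM in mesenchymal-like cells. In the FACS library it had 607 CPM in endothelial cell-like cells, and 415 CPM in Schwann cell-like cells. Of the 188 endothelial UMIs 1 cell held 61, and the level was 434 CPM without it. In thinned FACS cells the highest class of Adamts1 was Schwann cell-like. Adamts9 had 226 CPM in endothelial cell-like and 60.7 CPM in mesenchymal-like cells of the beads library. Between them were mast cell-like cells (89.1 CPM, 5 UMIs) and pericyte or smooth muscle cell-like cells (86.7 CPM). In FACS Adamts9 had 116 CPM in endothelial cell-like and 39.1 CPM (2 UMIs) in mast cell-like cells. Counting error did not separate these (log2 1.57, -0.39 to 4.67). Adamts18 was under 50 CPM, but 65 UMIs, 91.5% of those in the beads library, were in endothelial cell-like cells. Pericyte or smooth muscle cell-like cells had 95.8 CPM of Adamts12 and 62.4 CPM of Mmp11 (stromelysin-3), against 33.6 and 19.6 CPM in mesenchymal-like cells.

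Schwann cell-like cells of the beads library were highest for a pair of membrane-anchored MMPs. Mmp17 had 105 CPM in them and 10.6 CPM in the next class of the beads library, and 85.1% of its UMIs were there. In the FACS library it had 120.4 CPM in Schwann cell-like and 2.79 CPM in mesenchymal-like cells. Mmp15 had 68.7 CPM in Schwann cell-like and 28.0 CPM in endothelial cell-like cells of the beads library. In FACS it had 66.5 CPM (16 UMIs) in Schwann cell-like and 35.5 CPM in endothelial cell-like cells, which counting error did not separate (log2 0.90, -0.29 to 2.16), and endothelial cell-like cells were highest after thinning. Adamts5 had 166 CPM in Schwann cell-like and 158 CPM in mesenchymal-like cells, which counting error did not separate (log2 0.08, -0.14 to 0.29).

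The neighbours on chromosome 9 differed by class. Mmp13 and Mmp3 were highest in mesenchymal-like cells of both libraries, which held 84.8% of Mmp13 UMIs in beads and 92.2% in FACS. Mmp12 lies between them, and 94.3% of its UMIs in the beads library and 95.9% in the FACS library were in phagocyte-like cells. Mmp8 had 27 UMIs (303 CPM, 200 to 441) in neutrophil-like cells and 24 UMIs (27.9 CPM) in phagocyte-like cells of the beads library. A single neutrophil-like cell held 14 of those 27 UMIs, and the level was 152 CPM without it. Mmp27 was highest in phagocyte-like cells of both libraries, at 17.5 CPM in beads and 26.6 CPM in FACS. In the beads library Mmp9, on chromosome 2, had 63 UMIs (707 CPM, 543 to 905) in 33 of 125 neutrophil-like cells, against 27.9 CPM in phagocyte-like cells. The FACS library had only 16 neutrophil-like cells, too few to rank. They had 14 Mmp9 UMIs (1533 CPM, 838 to 2573), against 138 CPM in phagocyte-like cells, and 0 Mmp8 UMIs. There 40 Mmp8 UMIs (20.1 CPM) were in phagocyte-like cells.

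Mmp12 was held by few phagocytes. In the beads library 21 of 509 phagocyte-like cells had 10 or more Mmp12 UMIs and held 95.9% of the class's 1055. In the FACS library 20 of 749 such cells held 91.4% of 1230. Cells past this threshold were deeper than the other phagocyte-like cells. Their median was 2707 against 1040 UMIs in beads and 5228.5 against 2044 UMIs in FACS. The part of depth was not tested. The beads cells formed 1 cluster. In the FACS library phagocyte-like cells fell into 4 clusters, and cluster 11, with 41 cells (5.47% of the class), had 6432 CPM of Mmp12, against 26.6 to 54.8 CPM in the other 3. Its other leading genes included Mmp9, Cxcl3, Slpi, F7 and F10. The 20 FACS cells rich in Mmp12 had 657 CPM of Cxcl3, 498 CPM of F7 and 299 CPM of F10. The other FACS phagocyte-like cells had 29.1, 72.5 and 42.8 CPM of these. Cxcl3, F7 and F10 were picked from the leading genes of cluster 11, which held 92.8% of the class's Mmp12 UMIs. Their levels in these FACS cells are therefore no separate evidence. Slpi went the other way, with 1 UMI (9.96 CPM) in the cells rich in Mmp12 and 70.9 CPM in the others. In the beads library Slpi had 168 CPM and 176 CPM. The beads cells rich in Mmp12 had 684 CPM of Cxcl3, 529 CPM of F7 and 568 CPM of F10. The other beads phagocyte-like cells had 53.7, 105 and 85.7 CPM of these. Member genes were left out of the clustering.

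**Figure D5:**
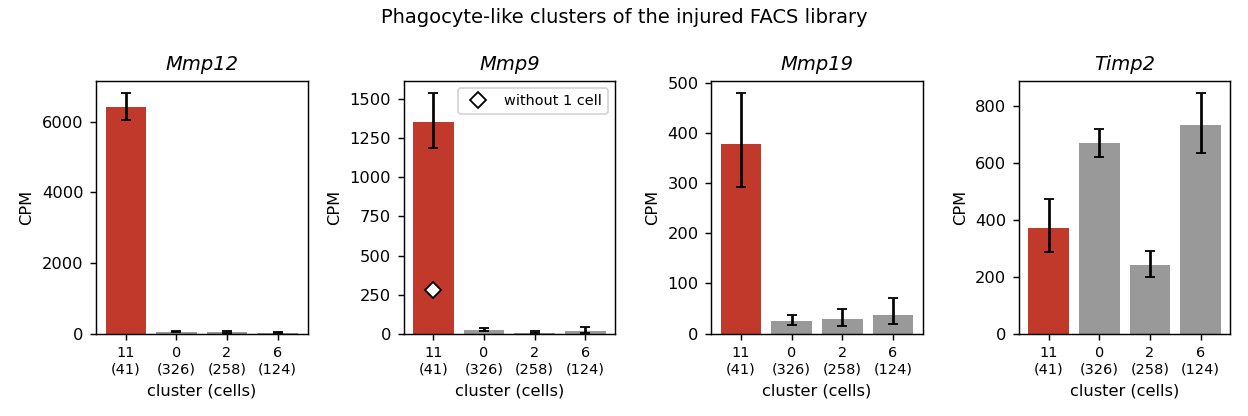
CPM of Mmp12, Mmp9, Mmp19 and Timp2 in the 4 phagocyte-like clusters of the injured FACS library (cell number in brackets), with exact Poisson 95% intervals. Cluster 11 (red) has 6432 CPM of Mmp12; its Mmp9 level is 276 CPM (diamond) without 1 cell that holds 195 of 241 UMIs.

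Mmp9 and Mmp19 also stood highest in cluster 11. For Mmp9 most UMIs came from 1 cell. It held 195 of the cluster's 241 UMIs and 0 Mmp12 UMIs, and without it the cluster had 276 CPM (202 to 369), against 6.33 to 24.1 CPM in the other 3. Over the whole FACS phagocyte-like class Mmp9 had 138 CPM with that cell and 40.4 CPM without it, which is under 50 CPM. Mmp19 had 377 CPM (292 to 479) in cluster 11 and 26.0 to 38.0 CPM in the others. The 20 cells rich in Mmp12 held 36 of the class's 275 Mmp9 UMIs. Of the 3 neutrophil markers read by cluster, S100a8 had 56.3 CPM (10 UMIs) in cluster 11 and 6.33 to 35.3 CPM in the others. S100a9 was at 0 in cluster 11 and at 2.11 to 3.80 CPM in the others. Csf3r had 11.3 CPM in cluster 11 and 52.7 to 80.8 CPM in the others. In the beads cells rich in Mmp12 S100a8 had 439 CPM, against 115 CPM in the other phagocyte-like cells. The other 2 markers went the other way between these cells. S100a9 had 38.7 CPM (3 UMIs) against 53.7 CPM, and Csf3r had 12.9 CPM (1 UMI) against 65.2 CPM. The part of neutrophil RNA in these values was not tested. The phagocyte marker Cd68 had 1639 CPM in cluster 11, 1720 CPM in cluster 0 and 519 to 795 CPM in clusters 2 and 6. C1qa had 805 CPM in cluster 11, against 3009 to 6659 CPM in the others. Csf1r had 422 CPM in cluster 11 and 319 to 898 CPM in the others. Mrc1 and Ccr2 were lowest in cluster 11, at 90.1 and 33.8 CPM. Timp2 had 372 CPM in cluster 11 and 240.4 to 734 CPM in the others.

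Related genes, namely 43 other extracellular proteases, inhibitors, receptors and matrix substrates, were read in the same comparison of injured and uninjured mesenchymal cells. Of 42 listed 30 reached 50 CPM, 4 of them past the rule upward and 6 downward, where 8.17% of all genes passed upward and 7.14% downward. Their median was -0.15 on the log2 scale, beside 0.20 over all genes. Higher were Adam12 (log2 2.85), Serpine2, the secreted inhibitor protease nexin-1 (2.24), Vcan, the versican cleaved by ADAMTS4 and ADAMTS9 (1.47), and Adam9 (1.03). Vcan had 678 CPM in injured against 245 CPM in uninjured cells. Lower were A2m, a broad protease trap (log2 -2.05), Adamtsl3 (-1.90), Adamtsl4 (-1.50), Adam33 (-1.13), Htra3 (-1.03) and Htra1 (-1.02).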

How the data were processed

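Drop-seq of mouse sciatic nerve gave 3 libraries. In the 4 tables the authors deposited, values are raw UMI counts of each gene in each barcode. Reads were placed on mm10, per the submitters' processing notes. Aligner, counting tool, strand setting and the selection of mesenchymal cells: not given in the sources used here. Depth ran from 2169121 to 10859939 UMIs per table. A gene with no row in a beads-cleared table was read as 0, and one with no row in the FACS table was given no value. All columns mapped to a sample.

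Injured barcodes with at least 200 genes were kept (4111 beads, 1914 FACS). Cells were clustered with scanpy 1.11.5 on 2000 variable genes and 30 components (Leiden, 15 neighbours, resolution 0.8), with member genes left out, and clusters were named "-like" from marker lists, needing a score and a margin of at least 1 and 3 markers seen in 5% of cells. Clusters with no clear name stayed unnamed (440 beads and 289 FACS cells). No doublet caller was run and doublets were not removed. Counts were summed per pool and given as CPM with exact Poisson 95% intervals. Ratios carry exact conditional binomial intervals and shares of cells exact binomial ones. No test was possible with 1 library per group. The ratio and its intervals were tested on simulated pool counts with counting error only. Uneven counts between cells were not simulated, so that test does not cover them. Gene positions are from GENCODE vM21, and promoter windows from RefSeq were found for 27 of the 41 members. Alternatives include edgeR 4.0.16 TMM factors and DESeq2 1.42.0 size factors, applied to the counts only as scalings. Members with at least 50 CPM in a mesenchymal pool or a named class of at least 20 cells are described singly, related genes are named where past the 2-fold rule, and further genes were named after their values were seen. Members and lists were chosen with earlier results of these data known. A result that needs a withheld item is not reported here.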

Additional observations from a re-analysis of the deposited data

Results flagged for a closer look

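In 2 genes the injured over uninjured difference had opposite signs in different mesenchymal subclasses, each with a counting interval that excludes equal levels. The difference between subclasses itself was not tested. Timp3 had log2 ratios of 1.65 in endoneurial-like, -0.28 in epineurial-like and -0.65 in perineurial-like cells. The endoneurial-like cells of the 2 groups came from different clusters. In perineurial-like cells Timp3 had 128 UMIs (599 CPM) in injured and 130 UMIs (939.8 CPM) in uninjured cells. Adamts16, an ADAMTS protease whose best known roles lie outside nerve, had a log2 ratio of 2.21 in endoneurial-like cells and -1.47 in epineurial-like cells. In epineurial-like cells it had 5 UMIs in injured and 31 UMIs in uninjured cells, and it stayed under 50 CPM in both subclasses.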

How the results depend on the processing

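No paired analysis was possible because each group has 1 library, and for the same reason no library could be left out. For injured over uninjured mesenchymal cells the members called lower numbered 3 with TMM factors, DESeq2 size factors or a floor of 10 CPM, 4 with no floor, 2 without cells holding other classes' markers or without differentiating-like cells, and 0 from per-cell means or thinned cells, against 1. Those called higher numbered 10 at a floor of 10 CPM and 13 with no floor, against 5. For FACS over uninjured cells 9 and 13 were higher at these floors, against 4, and 6 were lower with no floor and 1 from per-cell means or thinned cells, against 2. For FACS over beads cells, against 0 each way, 2 were higher at either floor, while 1 was lower with no floor, 2 without cells holding other markers (83 FACS cells left) and 1 without the top cell of each gene. Named by score, 2 members were higher in epineurial-like and 2 lower in perineurial-like cells, and 2 were lower in epineurial-like cells at a floor of 10 CPM, against 0 each. The cause of these moves was not tested, except that a lower floor admits more genes. TMM and DESeq2 scaling moved log2 ratios of injured over uninjured cells by -0.13 and -0.12. Of the Mmp, Adamts and Timp log2 ratios that were called, none changed sign. Adamts5 came to -0.75 from per-cell means and -0.90 in thinned cells. Of 22 members ranked in the beads library 21 or more kept their highest class (20 of 20 at 500 genes per barcode), and of 19 in the FACS library 15 did in thinned cells. Leaving out unnamed clusters or each gene's top cell was chosen after seeing the data. Depth limits genes under 50 CPM and small classes: 3 counts equal 53.4 CPM in the 36 mast cell-like cells of the beads library.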

Other observations

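Members below 50 CPM also followed classes of the injured beads library. Adamts17 had 49.5 CPM in Schwann cell-like cells (70 UMIs) and 14.0 CPM in mesenchymal-like cells. In FACS it had 12.5 CPM (3 UMIs) in Schwann cell-like and 9.75 CPM in mesenchymal-like cells, not separated by counting error (log2 0.35, -1.98 to 2.00). In the beads library Adamts20 had 21.2 CPM in Schwann cell-like cells (30 UMIs) and 3.05 CPM in mesenchymal-like cells. Timp4, an inhibitor known mostly from heart and vessels, had 19.8 CPM (13 UMIs) in pericyte or smooth muscle cell-like cells and 3.43 CPM in endothelial cell-like cells. Adamts19 had 38 UMIs in mesenchymal-like cells and 1 UMI in the next class, Schwann cell-like cells. Mmp27 stood at 39.2 CPM (16 UMIs) in injured and 25.2 CPM (23 UMIs) in uninjured epineurial-like cells, which held most of its UMIs in the mesenchymal pools.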
